A study of Mus musculus with 15 samples.

Results

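The genes described here are 8 genes of adhesion, trafficking and the cell surface whose RNA differed between the 4n-top and 4n-bottom fractions of mouse hepatocytes, out of 55984 genes in the count table. They are Tenm3, Syt1, Smim3, Elapor1, Fgfr2, Clec2h, Ctsc and Golm1. They were chosen by symbol for that difference, with no numerical threshold stated, so their 4n-top and 4n-bottom values are given as a description without a test. All 8 passed the filter on low counts that left 17488 genes.

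The study sorted hepatocytes from wild-type adult male C57BL/6JJcl mice by flow cytometry after staining of DNA with Hoechst, and sequenced RNA from each sorted population. The 2n-whole and 4n-whole populations were gated on the integrated Hoechst signal, which follows the DNA content of the cell. The 4n-top and 4n-bottom fractions lie within the 4n gate and have a high and a low peak of the signal, respectively. The 15 libraries came from 4 mice, of which mice 2, 3 and 4 gave a 4n-top library, and the 4n-top library of mouse 1 was not analysed here. No treatment was given, and no mutation is named for any population. The study describes the gates as enriching mononucleated cells in 4n-top and binucleated cells in 4n-bottom, with incomplete purity, so each fraction holds cells of both kinds.

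Total counts were 31814400 to 42096421 in 2n-whole, 22049498 to 38110566 in 4n-whole, 31461234 to 40831810 in 4n-bottom and 25588972 to 41438193 in 4n-top. Expression is given as CPM, counts scaled to a common library total after TMM normalization, and 3 counts, taken as the limit of detection, corresponded to 0.0693 to 0.12 CPM. This limit covers counting error only. The hepatocyte label held against the markers. The 9 markers present in the table, such as albumin, summed to between 84657 and 116166 CPM in every library. Lymphocyte and NK markers summed to at most 1.18 CPM, with Klrb1c and Gzma at 0 in all 15 libraries. Sums of other cell types were higher, at most 68.7 CPM for biliary, 34.6 for endothelial, 9.31 for Kupffer and 6.61 for stellate markers. In such bulk samples, a gene at a lower level can reflect fewer cells that express it or less RNA per cell, and these cannot be told apart.

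Several of the 8 genes act at membranes. Tenm3 encodes a teneurin, a large transmembrane protein that binds latrophilins on neighbouring cells. Fgfr2 encodes a receptor tyrosine kinase for fibroblast growth factors, and Clec2h encodes a C-type lectin-like surface protein of the family whose members serve as ligands of NKR-P1 receptors. Syt1 encodes synaptotagmin, the calcium sensor of vesicle fusion in neurons. Elapor1 encodes a transmembrane protein of the endosomal and lysosomal system, Ctsc encodes cathepsin C, a lysosomal dipeptidyl peptidase that activates serine proteases of immune cells, and Golm1 encodes a membrane protein of the Golgi. Smim3 encodes a small integral membrane protein. In the liver, hepatocytes express different genes along the axis of the lobule from the portal to the central vein, and hepatocytes of different ploidy are unevenly placed along it.

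Of 7 of these genes the positions are given. In the GENCODE M39 annotation of GRCm39, Tenm3 lies at chr8:48678708-49296986 on the minus strand, Syt1 at chr10:108333505-108846856 on the minus strand and Elapor1 at chr3:108362997-108443962 on the minus strand. Clec2h lies at chr6:128639343-128654340 on the plus strand, Ctsc at chr7:87927092-87960096 on the plus strand and Golm1 at chr13:59782440-59828564 on the minus strand. Fgfr2 is annotated at chr7:129763471-132725079 on the minus strand, a span of 2961609 bases that includes long isoforms and overlaps 99 other genes, whereas its canonical transcript spans 104802 bases. Elapor1 overlaps Cfap276 and Golm1 overlaps Naa35, each on the opposite strand, and Syt1 overlaps Brcc3dc on its own strand. The strand setting of the counting is not given in the sources used here, so reads of such partners may be shared.

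The 250 bases upstream of the annotated start are shown for 4 of the genes called in 4n-whole against 2n-whole, Tenm3 with higher and the other 3 with lower expression in 4n-whole, to show how unlike these promoters are. The sequences are from RefSeq on GRCm38.p6, which differs from the build of the counts, and 7 of the 8 genes had an entry. Each is written 5′ to 3′ on the strand of its gene, and capitals mark matches on either strand to the TATA box core TATAAA, the box CCAAT, the E-box CACGTG, the GC box GGGCGG, the TCF/LEF core CTTTGA or the HNF4A motif CAAAGTCCA.
Tenm3, chr8:48674691-48674940, minus strand: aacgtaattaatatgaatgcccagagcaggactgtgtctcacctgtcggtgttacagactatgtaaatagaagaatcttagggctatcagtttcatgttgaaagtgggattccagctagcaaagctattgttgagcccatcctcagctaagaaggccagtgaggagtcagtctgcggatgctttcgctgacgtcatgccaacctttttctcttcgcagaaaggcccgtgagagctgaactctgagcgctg
Clec2h, chr6:128662135-128662384, plus strand: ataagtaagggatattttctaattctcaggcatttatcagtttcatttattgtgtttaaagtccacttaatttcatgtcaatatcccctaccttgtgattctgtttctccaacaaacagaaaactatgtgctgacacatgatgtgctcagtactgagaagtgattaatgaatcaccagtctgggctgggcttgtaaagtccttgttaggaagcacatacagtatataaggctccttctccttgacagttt
Ctsc, chr7:88277835-88278084, plus strand: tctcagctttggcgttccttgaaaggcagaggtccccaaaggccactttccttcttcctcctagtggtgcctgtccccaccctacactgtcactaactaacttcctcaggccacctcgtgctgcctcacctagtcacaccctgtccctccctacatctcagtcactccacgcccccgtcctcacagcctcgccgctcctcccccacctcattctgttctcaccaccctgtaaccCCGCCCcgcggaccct
Golm1, chr13:59675785-59676034, minus strand: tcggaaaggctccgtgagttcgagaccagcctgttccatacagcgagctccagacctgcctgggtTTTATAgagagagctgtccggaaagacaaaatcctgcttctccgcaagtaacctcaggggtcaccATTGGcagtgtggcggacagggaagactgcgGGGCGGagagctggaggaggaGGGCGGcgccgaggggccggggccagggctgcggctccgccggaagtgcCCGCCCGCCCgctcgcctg
The Golm1 window held 20 CpG dinucleotides, with a GC content of 65.6%, and the Clec2h window held 0 CpG with a GC content of 37.2%. Ctsc had 9 CpG and Tenm3 had 8, and the median over all 32851 promoters in the table was 6 CpG and 52.4% GC. The GC box GGGCGG, present in 32.7% of all promoters, occurred 1 time in Ctsc and 4 times in Golm1, where a pair of matches overlap. Golm1 also held 1 TATA box core, present in 4063 of the 32851 promoters, and 1 CCAAT box, present in 33.8%. This TATA match is on the strand opposite to the gene, written TTTATA. Only exact matches were marked, so a near match such as tatataagg in Clec2h stays in lower case. None of the 4 windows held the E-box, the TCF/LEF core or the HNF4A motif, which occurred in 6.02%, 13.8% and 0.384% of promoters. These are matches of letters and were not tested as binding sites.

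In 4n-whole against 2n-whole hepatocytes, 6 of the 8 genes changed. The rule for the genes did not use this comparison, although its results were known when they were chosen. Tenm3 rose 2.97-fold, and Elapor1, Golm1, Ctsc, Clec2h and Fgfr2 fell by 5.35-, 2.09-, 1.84-, 1.68- and 1.61-fold. Syt1 and Smim3 did not pass the test. Calls required an adjusted p under 0.05 in edgeR's quasi-likelihood test, with the mouse as a block, and an absolute log2 fold change above 0.5. By this rule 3.47% of all tested genes were called, 1.74% as higher and 1.73% as lower. An unadjusted p under 0.05 was obtained for the same 6 genes and for 20.4% of all tested genes. The median absolute log2 fold change was 0.973 for the 8 genes and 0.296 for all tested genes. Ranges did not overlap between the populations for Tenm3 and Ctsc, compared with 5.8% of all tested genes. The libraries of this comparison come from the same mice as the fractions, so it is not a comparison in other animals.

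**Figure D1:**
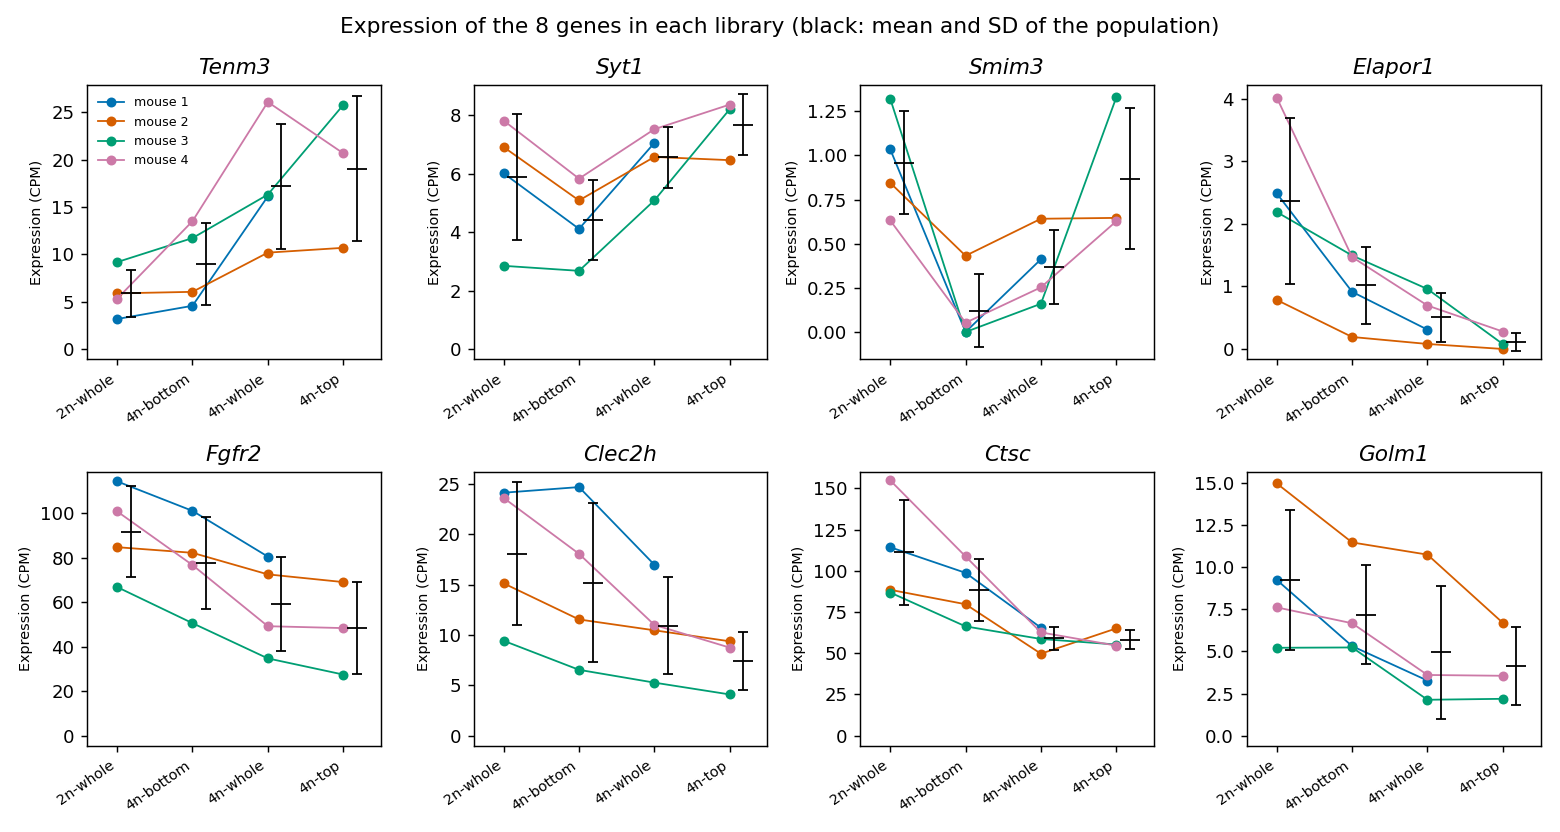
Expression (CPM, vertical axes starting just below 0) of the 8 genes in the 4 populations, with 1 point per library, lines joining libraries of one mouse, and black bars for the mean and SD of each population. Tenm3 is lowest in 2n-whole and highest in 4n-top and 4n-whole, whereas Elapor1, Fgfr2, Clec2h, Ctsc and Golm1 have their highest mean in 2n-whole.

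Tenm3 was the only member called as higher in 4n-whole than in 2n-whole. In 2n-whole its expression was 3.18, 5.88, 9.18 and 5.32 CPM in mice 1 to 4, with a mean of 5.89 ± 2.48 (SD, n = 4). In 4n-whole it was 16.1, 10.2, 16.3 and 26.1 CPM, with a mean of 17.2 ± 6.58 (SD, n = 4). Every 4n-whole library lay above every 2n-whole library. The log2 fold change was 1.57 (SE 0.22, adjusted p = 4.54e-05 by edgeR's quasi-likelihood test), and all 4 mice showed the same direction. The fractions differed in the mean but not in every library. The 4n-bottom libraries of mice 1 to 4 had Tenm3 at 4.57, 6.05, 11.7 and 13.5 CPM, and the 4n-top libraries of mice 2 to 4 had it at 10.7, 25.8 and 20.7 CPM. The means were 8.96 ± 4.32 (SD, n = 4) and 19.0 ± 7.66 (SD, n = 3), and the ranges overlapped, but within each of the 3 mice 4n-top was higher, by 0.61 to 1.13 on the log2 scale. Mean expression therefore ran from 2n-whole through 4n-bottom to 4n-whole and 4n-top, and the latter pair did not differ beyond the spread between mice, with a mean log2 difference of 4n-whole from 4n-top of -0.131 ± 0.499 (SD, n = 3).

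The cell surface genes Fgfr2 and Clec2h fell in 4n-whole and had a similar course over the 4 populations. Fgfr2 was at 114, 84.7, 66.7 and 101 CPM in the 2n-whole libraries of mice 1 to 4, and at 80.4, 72.4, 34.7 and 49.1 CPM in the 4n-whole libraries. The populations overlapped, yet every mouse had less Fgfr2 in 4n-whole. The means were 91.6 ± 20.5 and 59.2 ± 21.0 CPM (SD, n = 4 each), with a log2 fold change of -0.69 (SE 0.12, edgeR adjusted p = 0.000747). Fgfr2 in 4n-bottom was at 101, 82.1, 50.5 and 76.6 CPM, and in 4n-top, from mice 2 to 4, at 69.0, 27.4 and 48.3 CPM. In the 3 mice with both fractions the 4n-top library was the lower.

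Clec2h was at 24.1, 15.1, 9.43 and 23.6 CPM in 2n-whole and at 17.0, 10.5, 5.28 and 11.0 CPM in 4n-whole. Its means were 18.1 ± 7.08 and 10.9 ± 4.78 CPM (SD, n = 4 each). Each mouse again had the lower value in 4n-whole, and the log2 fold change was -0.75 (SE 0.15, edgeR adjusted p = 0.00385). In 4n-bottom Clec2h was at 24.7, 11.5, 6.54 and 18.05 CPM, so that mouse 1 lay slightly above its own 2n-whole library. In 4n-top it was at 9.37, 4.10 and 8.75 CPM, below the 4n-bottom library of the same mouse in all 3 mice. For both genes mouse 3 gave the lowest library in all 4 populations.

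Among the trafficking and lysosomal genes, Ctsc had the highest expression and a clear separation of the populations. Its 2n-whole libraries were at 114, 88.5, 86.8 and 155 CPM and its 4n-whole libraries at 65.4, 49.7, 58.6 and 62.6 CPM. The lowest 2n-whole library thus exceeded the highest 4n-whole library. The means were 111 ± 31.8 and 59.1 ± 6.87 CPM (SD, n = 4 each), and the log2 fold change was -0.88 (SE 0.13, edgeR adjusted p = 4.43e-05). Between the fractions the ranges were also apart, the 4n-bottom libraries being at 98.7, 79.7, 66.3 and 109 CPM and those of 4n-top at 65.0, 55.3 and 54.6 CPM. The gap between the nearest libraries was small, from 65.0 CPM in 4n-top of mouse 2 to 66.3 CPM in 4n-bottom of mouse 3. The 4n-top mean of 58.3 ± 5.85 CPM (SD, n = 3) was close to that of 4n-whole, and the mean log2 difference between them was 0.0351 ± 0.311 (SD, n = 3).

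Golm1 followed the same order at a lower level. It was at 9.24, 15.0, 5.22 and 7.61 CPM in 2n-whole and at 3.27, 10.7, 2.13 and 3.60 CPM in 4n-whole. Mouse 2 stood above the other mice in every population and mouse 3 was the lowest in every population, so the ranges overlapped while each mouse had a lower value in 4n-whole. The means were 9.26 ± 4.15 and 4.94 ± 3.92 CPM (SD, n = 4 each), with a log2 fold change of -1.06 (SE 0.21, edgeR adjusted p = 0.00235). In 4n-bottom Golm1 was at 5.32, 11.5, 5.24 and 6.67 CPM, and in 4n-top at 6.69, 2.19 and 3.55 CPM. The 4n-top library was lower than the 4n-bottom library in each of the 3 mice.

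Elapor1 had the largest fitted change of the 8 genes in 4n-whole against 2n-whole, on few counts. The 2n-whole libraries held 101, 26, 63 and 140 counts, or 2.49, 0.785, 2.19 and 4.02 CPM. The 4n-whole libraries held 12, 2, 36 and 22 counts, or 0.309, 0.0802, 0.959 and 0.695 CPM. The highest 4n-whole library exceeded the lowest 2n-whole library, which came from mouse 2, the mouse with the lowest Elapor1 in all 4 populations. The means were 2.37 ± 1.33 and 0.511 ± 0.392 CPM (SD, n = 4 each), and the log2 fold change was -2.42 (SE 0.55, edgeR adjusted p = 0.00928). The 4n-bottom libraries held 32, 8, 48 and 56 counts, or 0.915, 0.192, 1.496 and 1.471 CPM. In 4n-top, mice 2 to 4 had 0, 2 and 8 counts, or 0, 0.0782 and 0.279 CPM, so that 2 of the 3 libraries were below 3 counts.

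Syt1 and Smim3 behaved differently from the other 6 genes, in that 4n-top lay above 4n-bottom while 4n-whole gave no call against 2n-whole. Syt1 was at 6.01, 6.91, 2.85 and 7.82 CPM in 2n-whole and at 7.05, 6.57, 5.09 and 7.52 CPM in 4n-whole. The value was higher in 4n-whole in 2 mice and lower in 2, with a log2 fold change of 0.20 (SE 0.22, edgeR adjusted p = 0.695). In 4n-bottom it was at 4.12, 5.09, 2.68 and 5.83 CPM, and in 4n-top at 6.46, 8.21 and 8.36 CPM. All 4n-top libraries lay above all 4n-bottom libraries. In mouse 3, 4n-top exceeded 4n-bottom by 1.59 on the log2 scale, compared with 0.34 and 0.52 in mice 2 and 4. Each mouse had less Syt1 in 4n-bottom than in its own 2n-whole library, by a mean log2 difference of 0.371 ± 0.197 (SD, n = 4).

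Smim3 was near the limit of detection in part of the libraries. It had 42, 28, 38 and 22 counts in 2n-whole, or 1.04, 0.845, 1.32 and 0.632 CPM, and 16, 16, 6 and 8 counts in 4n-whole, or 0.412, 0.641, 0.160 and 0.253 CPM. Every mouse had the lower value in 4n-whole, but the log2 fold change of -1.55 had an SE of 0.88 and an edgeR adjusted p of 0.339. In 4n-bottom the counts were 0, 18, 0 and 2, so 3 of the 4 libraries were below 3 counts and the fourth, from mouse 2, held nearly all of them. The 4n-top libraries of mice 2 to 4 had 28, 34 and 18 counts, or 0.646, 1.33 and 0.627 CPM, a range similar to that of 2n-whole. The 4n-top and 2n-whole libraries differed by 0.12 ± 0.206 on the log2 scale (SD, n = 3).

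**Figure D2:**
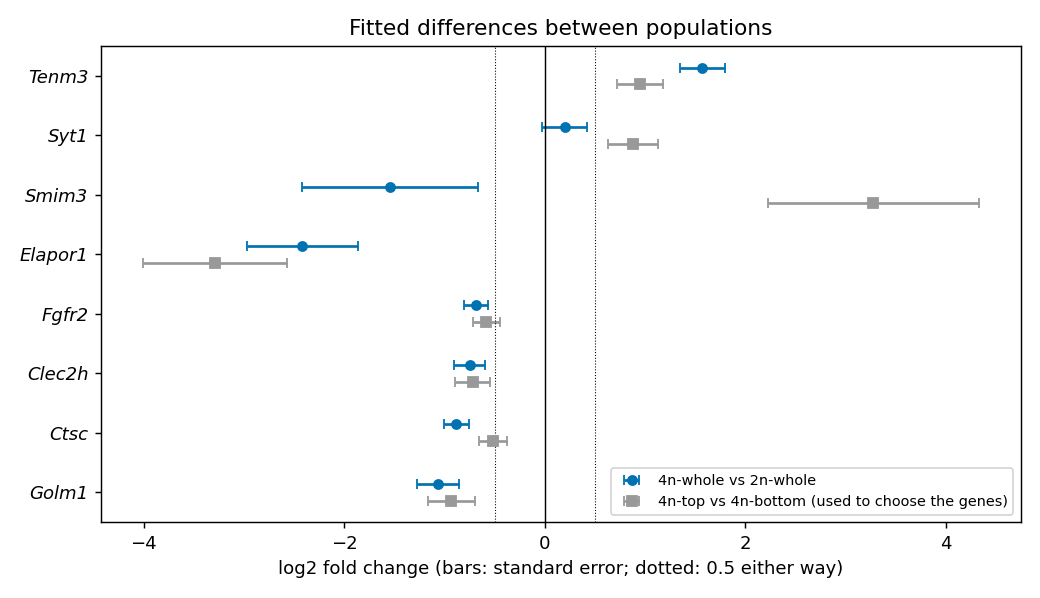
Fitted log2 fold changes (horizontal axis) of the 8 genes in 4n-whole against 2n-whole (blue circles) and in 4n-top against 4n-bottom (grey squares, the comparison that chose the genes), with bars for the standard error and dotted lines at 0.5 either way. Tenm3 and the 5 genes from Elapor1 to Golm1 lie on the same side of 0 in both, Smim3 lies at -1.55 and 3.28, and Syt1 lies at 0.20 and 0.88.

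Between the fractions, the fitted log2 differences of 4n-top from 4n-bottom were 0.95 (SE 0.23) for Tenm3, 0.88 (SE 0.25) for Syt1 and 3.28 (SE 1.05) for Smim3. They were -3.29 (SE 0.72) for Elapor1, -0.93 (SE 0.23) for Golm1, -0.72 (SE 0.18) for Clec2h, -0.58 (SE 0.13) for Fgfr2 and -0.52 (SE 0.14) for Ctsc. Each gene had its direction in all 3 mice. In this comparison 0.0114% of all tested genes were called, 2 genes in all, and none was among the 8 in edgeR, although all 8 had an unadjusted p under 0.05, as did 2.79% of all tested genes. With DESeq2 and the mouse block 3 of the 8 were among 49 genes called, and with ComBat-seq followed by DESeq2 4 were among 18. In edgeR, 4 of the 8 were among 25 genes called without the filter on low counts. With the libraries of these fractions alone 2 of the 8 were among 15, and without mouse 2 it was 4 among 29. Ranges did not overlap for Syt1, Smim3 and Ctsc, compared with 3.15% of all tested genes. Since the genes were chosen on this contrast, these counts and shares are given as background and nothing is read from them.

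Each fraction was also set beside 2n-whole, which gives values that share libraries with both comparisons above and are reported without a test. Tenm3 was 0.54 higher on the log2 scale in 4n-bottom than in 2n-whole and 1.49 higher in 4n-top. For the 5 genes that fell in 4n-whole, 4n-bottom lay below 2n-whole by a smaller amount than 4n-top did. For Fgfr2 the log2 difference from 2n-whole amounted to -0.27 for 4n-bottom and -0.85 for 4n-top, for Clec2h to -0.31 and -1.03, and for Ctsc to -0.32 and -0.84. It was -0.34 and -1.28 for Golm1 and -1.39 and -4.68 for Elapor1. The order of means was 4n-top, 4n-whole, 4n-bottom and 2n-whole, from low to high, for Elapor1, Fgfr2, Clec2h and Golm1, and Ctsc differed only in that 4n-whole and 4n-top were level. Each gene was then taken in its own order of mean log2 CPM after removal of the mouse effect. Neighbouring populations overlapped in range for all 8 genes, except 4n-top and 4n-bottom for Ctsc. The ranges of Ctsc in 4n-whole, up to 65.4 CPM, and in 4n-bottom, from 66.3 CPM, were also apart. Within mice, the step from 4n-whole to 4n-bottom was upward in all 4 mice for Elapor1, Fgfr2, Clec2h and Golm1. The step from 4n-top to 4n-whole was smaller than its own spread for Golm1, at 0.22 ± 0.397 (SD, n = 3), and close to it for Fgfr2, at 0.144 ± 0.169 (SD, n = 3).

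Per kilobase of the canonical transcript, the 8 genes covered a wide range of levels. In 2n-whole, Ctsc had 41.2 ± 11.8 CPM per kb, Fgfr2 16.2 ± 3.64 and Clec2h 8.33 ± 3.27 (SD, n = 4 each). Golm1 had 2.30 ± 1.03 and Syt1 1.24 ± 0.453 CPM per kb. Tenm3 with 0.537 ± 0.226, Smim3 with 0.473 ± 0.145 and Elapor1 with 0.399 ± 0.223 CPM per kb were the lowest. In 4n-whole Tenm3 reached 1.57 ± 0.600 CPM per kb and Elapor1 was at 0.0859 ± 0.0660.

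Across the 15 libraries, after the mean of each mouse was removed, the 5 genes that fell in 4n-whole varied together. Over their 10 pairs, Pearson's r of log2 CPM was between 0.776 and 0.951, the highest between Fgfr2 and Clec2h. Tenm3 ran against them, with r from -0.89 to -0.842. Smim3 had r between -0.122 and 0.00694 with the 5 genes, and its highest r was with Syt1, at 0.581. Once the population means were removed as well, Fgfr2 and Clec2h still had r = 0.716 and Clec2h and Ctsc r = 0.669, while Elapor1 had r = -0.00921 with Fgfr2 and 0.022 with Golm1. Ctsc and Golm1 then had r = -0.412 and Clec2h and Golm1 r = -0.122. With the 5 genes Tenm3 had r between -0.517 for Elapor1 and -0.134 for Golm1. The strongest value of any pair was then r = -0.753, between Smim3 and Elapor1, both on few counts, and Syt1 and Fgfr2 had r = -0.624. These values describe libraries that share mice and populations, and the choice of genes on 2 of the populations fixes part of them.

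**Figure D3:**
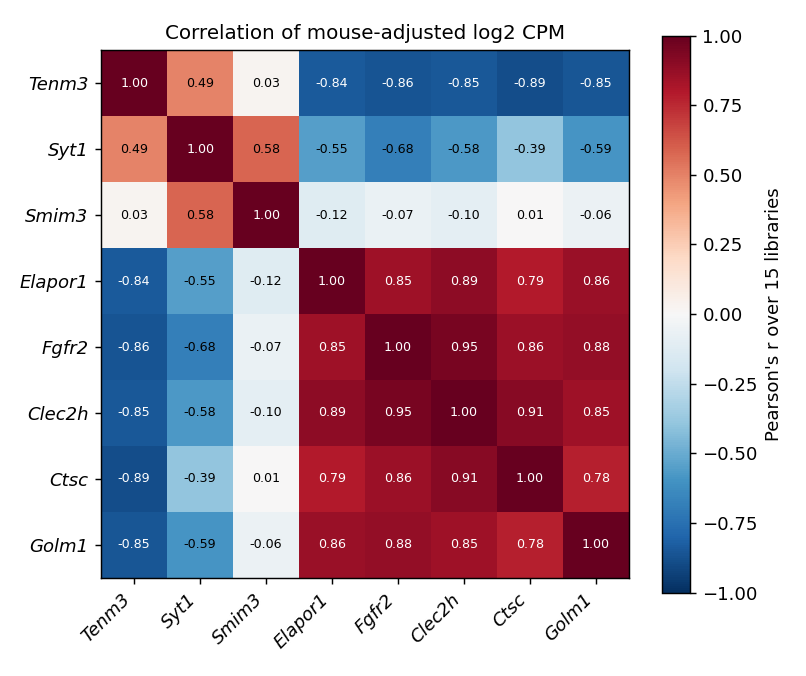
Pearson's r between the log2 CPM of the 8 genes over 15 libraries after removal of the mouse effect, on a colour scale from -1 to 1 with each value written in its cell. The block of Elapor1, Fgfr2, Clec2h, Ctsc and Golm1 is positive, Tenm3 is negative with each of them, and Smim3 is near 0 with them.

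The genes with the most similar pattern over the same 15 libraries included known markers of lobular position. For Ctsc they were Cdh1 (r = 0.976), encoding E-cadherin, Hsd17b13 (r = 0.966), encoding a lipid droplet protein, and Acly (r = 0.964), encoding ATP citrate lyase. Cdh1 and Hsd17b13 belong to the periportal list used below. For Golm1 they were Atp1b1 (r = 0.94), Sds (r = 0.93), which encodes serine dehydratase and is also on the periportal list, and Aldh1b1 (r = 0.911). Fgfr2 was most like Rasgef1b (r = 0.957), Hsd17b6 (r = 0.954) and Clec2h (r = 0.951), and Clec2h was most like Hsd17b6 (r = 0.955), Gm47405 (r = 0.954) and Fgfr2. The most similar genes to Elapor1 were Mrpl19 (r = 0.953), Slc5a3 (r = 0.899) and Ppp1r9b (r = 0.896). Tenm3 was followed most closely by Csrp3 (r = 0.949), Gm13775 (r = 0.947) and the glutathione transferase gene Gsta3 (r = 0.944). For Syt1 the closest were Gm57280 (r = 0.918), Eif3f (r = 0.878) and Vps33a (r = 0.864), and for Smim3 they were Mcm5 (r = 0.886), Abca17 (r = 0.847) and Gm57346 (r = 0.843). When the mouse effect was not removed, 2 of these 24 pairings were kept.

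Over the 6 lists of partners of the 8 genes, 5 of 132 tested genes were called in 4n-whole against 2n-whole, beside 3.47% of all tested genes, a share of similar size. In the list of FGF receptors, ligands and feedback genes, 23 of 28 genes were tested and 2 fell. Fgfr1, another FGF receptor, fell from 18.7 ± 4.81 to 5.77 ± 2.85 CPM (SD, n = 4 each), with a log2 fold change of -1.81 (SE 0.22, edgeR adjusted p = 4.0e-06). Spred1, an inhibitor of Ras and MAP kinase signalling, fell by 0.51 on the log2 scale (SE 0.15, edgeR adjusted p = 0.0389). The median log2 fold change of the list was -0.00653, compared with -0.007 for all tested genes. Among 34 tested of 49 synaptotagmin and SNARE genes, Snap29, a SNARE of intracellular membrane fusion, fell by 0.54 on the log2 scale (SE 0.16, edgeR adjusted p = 0.0442), and the median of the list was -0.131.

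Of 33 cathepsin, cystatin and lysosomal genes, 30 were tested and 1 fell. It was Cd63, a tetraspanin of late endosomes and lysosomes, with a log2 fold change of -2.12 (SE 0.55, edgeR adjusted p = 0.0234). Its level was low and varied between mice, at 3.10 ± 2.55 CPM in 2n-whole and 0.589 ± 0.420 CPM in 4n-whole (SD, n = 4 each). The median of this list was -0.0772. None of the 10 tested of 14 teneurin, latrophilin and FLRT genes was called by edgeR, with 3 at an unadjusted p under 0.05 and a median of -0.218. None of the 34 Golgi genes was called either, with 10 at an unadjusted p under 0.05 and a median of -0.0211. In the Clec2 and NKR-P1 list of 12 genes only Clec2d passed the filter, at 93.2 CPM in 2n-whole and 123 CPM in 4n-whole. Its log2 fold change of 0.42 (edgeR adjusted p = 0.00864) was under the limit on the fold change, and it is named because it was the one gene of its list that could be tested. In 4n-top against 4n-bottom edgeR called 0 of the 132 list genes, with 6 at an unadjusted p under 0.05, and DESeq2 with the mouse block called 1. The list medians there lay between -0.492 for the teneurin list and 0.0312 for Clec2d alone, with 0.00101 for all tested genes.

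Markers of lobular position differed between 4n-whole and 2n-whole. All 10 pericentral markers were higher in 4n-whole than in 2n-whole and 9 were called. Their summed level was 487 to 838 CPM in 2n-whole, 862 to 2940 in 4n-whole, 841 to 2099 in 4n-bottom and 831 to 3201 in 4n-top. Of 10 periportal markers 9 were lower in 4n-whole, and Cyp2f2, Hsd17b13 and Cdh1 were called. The log2 ratio of the pericentral to the periportal sum ranged from -4.64 to -4.17 in 2n-whole and from -3.69 to -1.95 in 4n-whole, without overlap. The lobular ratio and ploidy therefore cannot be told apart in this comparison. With the ratio added to the model, the genes called by edgeR over all tested genes fell from 607 to 64. Of the 8 genes 0 were then called, with 1 at an unadjusted p under 0.05. The log2 fold change was 0.12 for Tenm3 (SE 0.41, edgeR adjusted p = 0.937) and -0.60 for Ctsc (SE 0.29, edgeR adjusted p = 0.328). Without the ratio the SE was 0.22 for Tenm3 and 0.13 for Ctsc. Elapor1 was at -2.82 with an SE of 1.46 (adjusted p = 0.377), a larger fold than without the ratio.

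**Figure D4:**
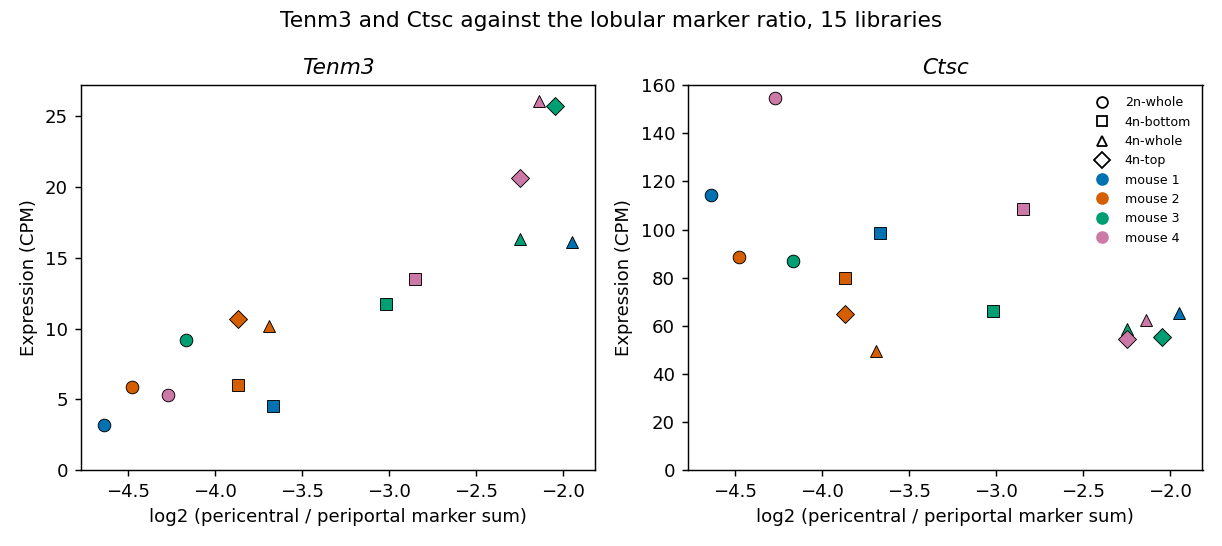
Expression of Tenm3 and Ctsc (CPM, vertical axes from 0) against the log2 ratio of summed pericentral to periportal marker expression (horizontal axis), with 1 point per library, colour for the mouse and shape for the population. The 2n-whole libraries lie at ratios of -4.64 to -4.17 with Tenm3 at 3.18 to 9.18 CPM, and the libraries with the highest ratios have Tenm3 above 16 CPM and Ctsc below 66 CPM.

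Between the fractions the markers did not move one way. Of the 10 pericentral markers 5 were higher in 4n-top than in 4n-bottom and 5 lower, with a median log2 difference of -0.012, and 1, Glul, was called lower. Cyp2e1, the most abundant of them, was 0.72 higher on the log2 scale, whereas Glul was at -0.90 and Slc1a2 at -1.08. All 10 periportal markers were lower in 4n-top, and edgeR called 0 of them. The ratio of the sums overlapped, at -3.87 to -2.85 in 4n-bottom and -3.87 to -2.05 in 4n-top. In mouse 2 the 4n-top and 4n-bottom libraries both had a ratio of -3.87. In that mouse Tenm3 was at 10.7 CPM in 4n-top and 6.05 in 4n-bottom, Syt1 at 6.46 and 5.09, Smim3 at 0.646 and 0.432, and Elapor1 at 0 and 0.192. Fgfr2 was at 69.0 CPM in 4n-top and 82.1 in 4n-bottom, Clec2h at 9.37 and 11.5, Ctsc at 65.0 and 79.7, and Golm1 at 6.69 and 11.5. These are single libraries of the contrast that chose the genes, and an equal ratio of sums does not show that each marker was equal. Nothing about lobular position is read from them, and its part in the differences was not tested. In mice 3 and 4 the ratio was -2.05 and -2.25 in 4n-top and -3.02 and -2.85 in 4n-bottom. With the ratio in the model, the fitted log2 differences between the fractions were 0.46 (SE 0.22) for Tenm3, 0.63 (SE 0.29) for Syt1 and 2.67 (SE 1.22) for Smim3. They were -0.41 (SE 0.14) for Fgfr2, -0.60 (SE 0.20) for Clec2h, -0.43 (SE 0.16) for Ctsc and -0.77 (SE 0.27) for Golm1. Elapor1 was at -3.45 (SE 0.88), larger in size than without the ratio, whereas the other genes had smaller differences.

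Markers of other liver cells were low in all populations, and their summed median was highest in 2n-whole, at 95.3 CPM, compared with 63.1 in 4n-whole, 65.6 in 4n-bottom and 50.4 in 4n-top. Endothelial, Kupffer, stellate, biliary and lymphocyte markers together summed to 87.1 to 107 CPM in 2n-whole, 39.1 to 95 in 4n-whole, 49.9 to 93.8 in 4n-bottom and 43.3 to 80.2 in 4n-top. The biliary list was 55.3 to 68.7 CPM in 2n-whole, 28.6 to 53.0 in 4n-whole, 38.0 to 56.3 in 4n-bottom and 33.0 to 49.9 in 4n-top. Its 7 tested genes were all lower in 4n-whole and Sox9 and Spp1 were called. Its defining genes were near 0, with Krt19 at no more than 1.33 CPM and Epcam at no more than 0.765 CPM. The endothelial list was 18.02 to 30.9 CPM in 2n-whole and 5.75 to 34.6 in 4n-whole, and the Kupffer list was 0.666 to 9.31 and 1.33 to 2.89 CPM. With the summed level of these lists in the model, the genes called by edgeR over all tested genes fell from 607 to 8. None of the 8 genes described here was called, with 4 at an unadjusted p under 0.05. The log2 fold change was 1.00 for Tenm3 (SE 0.39, edgeR adjusted p = 0.433) and -0.51 for Ctsc (SE 0.22, edgeR adjusted p = 0.475). In that model the log2 fold change of Golm1 was -1.06 with an SE of 0.37 (adjusted p = 0.383), the same size as without the covariate, and that of Elapor1 was -3.10 with an SE of 0.98 (adjusted p = 0.321). Which cells carried the RNA of the 8 genes was not tested.

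The calls in 4n-whole against 2n-whole depended on pairing by mouse. Without the mouse block only Ctsc was called, and the adjusted p by edgeR was 0.0989 for Tenm3 and 0.302 for Elapor1. With mouse 4 left out, 4 of the 8 genes were called, and Elapor1 (edgeR adjusted p = 0.125) and Clec2h (edgeR adjusted p = 0.111) were not.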

How the data were processed

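The authors deposited raw counts per gene symbol for 15 libraries, without normalization. Per the submitters' processing notes, reads were handled with STAR 2.7.11a and featureCounts of Subread on GRCm39. The annotation, the strand setting and the handling of mates are not given in the sources used here. Among counts from 1 to 10, 74.2% to 81.4% per library were even, so 3 counts may stand for fewer fragments.

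The 8 genes and the gene lists were chosen with earlier results of these data known. Libraries were grouped by their labels. The model was edgeR 4.0.16 (R 4.3.3), using TMM scaling, the default filter (minimum count 10, minimum total 15), population as factor and mouse as replicate block. P-values of the quasi-likelihood test were adjusted by Benjamini-Hochberg over 17488 genes, and calls needed an adjusted p below 0.05 and a log2 fold change beyond 0.5 either way. The subject number of the labels marks the mouse. Between libraries from one mouse the residuals correlated with a mean r of 0.158, lowest 0.0845, with 20 of 21 pairs over 0.1. Log2 CPM for correlations and within-mouse differences used a prior count of 2, with the mouse effect removed for correlations by limma 3.58.1. Named genes were the 8 genes, the 3 most correlated genes of each, and the called genes of each list, of which 1 is not reported here. Alternatives used DESeq2 1.42.0, ComBat-seq of sva 3.50.0, other scaling, filters and libraries, halved counts and marker covariates. The fit was tested on simulated data.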

Additional observations from a re-analysis of the deposited data

Results flagged for a closer look

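In 24 groups of 4 libraries, the highest or lowest library of each gene was compared with the rest by Dixon's ratio, the gap to the nearest library over the whole range, and chance passes the critical value of 0.829 in about 1 in 20 groups. Smim3 in 4n-bottom had a ratio of 0.878, because mouse 2 had 18 counts and the other mice 0, 0 and 2. Golm1 in 4n-whole had a ratio of 0.829, with mouse 2 at 10.7 CPM and the other mice at 2.13 to 3.60 CPM. Mouse 2 also had the highest Golm1 in the other 3 populations.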

How the results depend on the processing

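In 4n-whole against 2n-whole, 607 genes and 6 of the 8 genes were called with the replicate block by mouse. Without this block 40 genes and 1 of the 8 were called, with 4 of the 8 at an unadjusted p under 0.05, and the count over the partner lists moved from 5 to 0, with 17 at an unadjusted p under 0.05. ComBat-seq followed by DESeq2 called 1160 genes, the libraries of the compared populations alone 305, and no limit on the fold change 957. The partner lists then had 9, 2 and 8 calls. Leaving out libraries gave 244 to 1025 genes and 1 to 6 list genes, with 4 to 6 of the 8. Of the alternatives added after seeing the data, a lobular covariate called 64 genes, 0 of the 8 and 2 list genes, and a non-parenchymal covariate 8 genes, 0 of the 8 and 0 list genes. Without the shallowest library, that of 4n-whole from mouse 2, 338 genes were called, 6 of the 8 and 1 list gene.

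In 4n-top against 4n-bottom the 2 genes called became 0 without the block, 49 with DESeq2 and the block, 18 with ComBat-seq and DESeq2, 25 without the filter, 15 with these populations alone, 1 with halved counts, 0 with the non-parenchymal covariate, 0 to 29 when a mouse was left out and 5 without that shallowest library.

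The 8 fold changes kept their sign in 111 of 112 alternative values in 4n-whole against 2n-whole and in all 112 between the fractions. The exception was Syt1 with the lobular covariate, at -0.53 (adjusted p = 0.692). The genes were chosen on the difference between the fractions, and the alternatives reuse the same libraries. Their signs there were therefore largely fixed beforehand, and nothing is read from them. The difference of Smim3 between the fractions was 5.46 without mouse 2 and that of Elapor1 -4.47 without mouse 4. Of the 24 nearest genes, 2 were kept when the mouse effect was not removed and 21 with a prior count of 0.5. The causes were not tested. At this depth Smim3 and Elapor1 rested on few counts, and 4n-top on 3 mice.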
